A study of Mus musculus with 8 samples.

Results

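Polyadenylated RNA of liver nuclei was compared with that of MIN6 nuclei, using 4 of the 8 libraries of a study of mRNA held in the nucleus of mouse cells. Liver and MIN6 each gave 2 nuclear libraries, and their cytoplasmic libraries were used only where named. The liver came from mice with no age, sex or treatment given, and the strain label runs through C57BL/6 and C57BL/7 for the nuclear and C57BL/8 and C57BL/9 for the cytoplasmic libraries, so it may not name separate strains. MIN6 is a mouse insulinoma line, that is, 1 tumour-derived line grown in culture and widely used as a stand-in for pancreatic beta cells, and no treatment is labelled. The table lists 26520 genes, and 13958 genes other than small RNA gene models reached a mean of at least 1 over the 4 libraries once each library was rescaled to a sum of 1000000 FPKM over those genes. A further 121 small RNA gene models passed the same minimum and are described apart.

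FPKM counts fragments per length of transcript and per mapped fragments of the library, which puts genes of different length on 1 scale. Nuclear polyadenylated RNA holds newly finished transcripts and those retained before export, so a tissue's nuclear RNA carries the products of its active genes together with noncoding RNAs that rarely leave the nucleus. Hepatocytes, the main cells of liver, secrete most plasma proteins and carry out gluconeogenesis, bile acid synthesis, drug oxidation and urea formation. Beta cells store insulin in granules and release it when glucose metabolism closes ATP-sensitive potassium channels and opens calcium channels.

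The 2 preparations were not alike. Per the labels, liver nuclear RNA was the soluble material left once chromatin had been removed from the nuclei, whereas MIN6 nuclear RNA was taken from whole nuclei pelleted through sucrose, so tissue and preparation cannot be told apart. The labels do not say whether replicates came from separate animals or cultures, and p-values then measure only the spread between these libraries, which may be technical. Deposited sums without small RNA models were 122877 and 84148 FPKM in liver and 32208 and 20693 FPKM in MIN6. From the smallest steps in the deposited values, 1 read on a transcript of 2 kb was worth about 1.13 and 1.18 rescaled FPKM in the liver libraries and about 0.827 and 1.48 in the MIN6 libraries, so values of a few FPKM rest on a handful of reads. Replicates correlated at r = 0.899 in liver and 0.896 in MIN6 across the genes tested on the log2 scale, and the 2 tissue means at r = 0.39. Genes are not independent replicates, so these are descriptions.

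The labels were checked on nuclear RNAs and on tissue markers. Title and source label of the MIN6 samples contradict each other on the fraction. By title, the nuclear libraries held 13150 and 4733 rescaled FPKM of Meg3, a long noncoding RNA that stays in the nucleus, and the cytoplasmic ones 89.2 and 16.1. For Neat1, the scaffold of nuclear paraspeckles, the nuclear values were 698 and 1384 and the cytoplasmic values 51.6 and 43.5. Neither RNA overlapped between the fractions, and the titles were followed. All 10 hepatocyte markers were higher in liver, with sums of 19990 and 24480 rescaled FPKM against 338.5 and 253.2 in MIN6, and all 10 beta-cell markers were listed at 0 in both liver libraries. In bulk RNA, fewer cells of a type and less RNA per cell cannot be told apart.

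Nuclear RNA of liver and MIN6 differed widely and in nearly equal numbers in each direction. Of the 13958 genes tested, 2240 were higher in liver (16%) and 2140 were higher in MIN6 (15.3%), at an adjusted p under 0.05 by limma with Benjamini-Hochberg adjustment. These shares are the background for the counts of gene groups that follow. The smallest called difference was 1.43 on the log2 scale of rescaled FPKM plus 1, which is the scale of every difference given here. Genes listed at 0 in both libraries of the other tissue made up 1287 of the liver calls and 840 of the MIN6 calls. For such genes no fold of the nuclear comparison is given. They passed the minimum through the higher tissue alone, so the direction of their calls was fixed in advance. Both liver libraries lay above both MIN6 libraries in 30.7% of the genes tested, and both MIN6 libraries lay above both liver libraries in 37.3%. In 1792 of the liver calls and 1773 of the MIN6 calls, the higher tissue averaged at least 10 rescaled FPKM. Without liver replicate 1 the calls numbered 1632 for liver and 429 for MIN6, and without liver replicate 2 they numbered 1314 and 332. Without MIN6 replicate 1 they numbered 1131 and 1579, and without MIN6 replicate 2 they numbered 1280 and 1382. On columns scaled to a common median the split was 2519 against 1869, a liver share of 57.4% in place of 51.1%, and the median of all genes moved from −0.18 to 0.04.

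**Figure D1:**
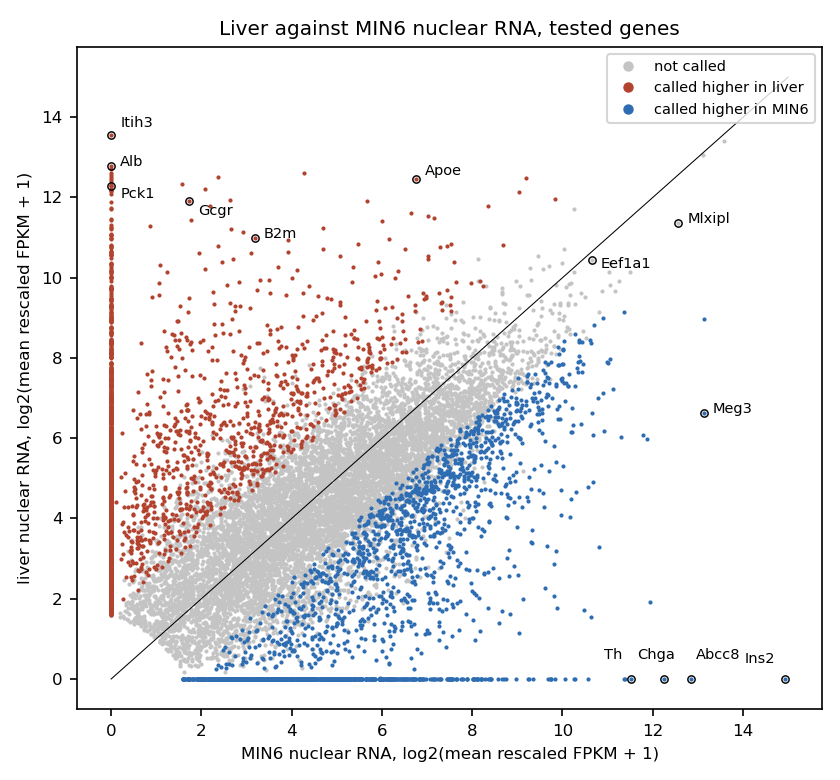
Mean rescaled FPKM of each tested gene in liver nuclei (vertical) against MIN6 nuclei (horizontal), both as log2 of the mean plus 1, with genes called higher in liver in red, in MIN6 in blue and those not called in grey. Genes listed at 0 in both libraries of a tissue lie on an axis. Ins2, Abcc8, Chga and Th lie on the MIN6 axis, while Mlxipl and Eef1a1 lie in the grey band.

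By mean rescaled FPKM, 8 genes were among the 100 highest of both tissues. Ins2, which encodes insulin, ranked 1 in MIN6 nuclei at 25910 and 36860 rescaled FPKM and was listed at 0 in both liver libraries (adjusted p = 0.00203, limma). Itih3, a heavy chain of the inter-alpha-trypsin inhibitor of plasma, ranked 1 in liver at 15900 and 8216 and was listed at 0 in both MIN6 libraries (adjusted p = 0.00203, limma). Alb, serum albumin, stood at 5282 and 8768 in liver and was listed at 0 in both MIN6 libraries (adjusted p = 0.00203, limma). In each of these genes the tissues did not overlap.

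A few transcripts were among the highest in both nuclei. Gm11032, a gene model annotated as protein coding, ranked 2 in each tissue, at 10380 and 11340 rescaled FPKM in liver and at 17940 and 6452 in MIN6. Its difference was 0.01 (adjusted p = 0.989, limma), and the tissues overlapped. Pcyt2, an enzyme of phosphatidylethanolamine synthesis, stood at 9168 and 7894 rescaled FPKM in liver and at 11940 and 5675 in MIN6, ranking 3 and 5. Its difference was 0.05 (adjusted p = 0.952, limma), and the tissues overlapped. Both genes were singled out after their values were seen. Mlxipl encodes ChREBP, a glucose-responsive transcription factor, and it ranked 43 in liver nuclei and 7 in MIN6 nuclei. It stood at 2495 and 2784 in liver and at 6552 and 5540 in MIN6, a difference of −1.19 ± 0.36 (SE, n = 2 per tissue) that did not pass limma's test (adjusted p = 0.0786). Both MIN6 libraries lay above both liver libraries. In the cytoplasmic libraries Mlxipl stood at 101 and 104 rescaled FPKM in liver and at 150 and 92.3 in MIN6.

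High nuclear levels in liver were also found for a hormone receptor and an immune sensor. Gcgr, the glucagon receptor, stood at 4150 and 3567 rescaled FPKM in liver and at 4.65 and 0 in MIN6, a difference of 10.66 ± 0.96 (SE, n = 2 per tissue, limma adjusted p = 0.00544). Nlrp6, an inflammasome sensor, stood at 2560 and 2426 in liver and at 1.63 and 0 in MIN6, a difference of 10.59 ± 0.61 (SE, n = 2 per tissue, limma adjusted p = 0.00264). Both liver libraries lay above both MIN6 libraries for each gene, and the MIN6 values rest on few reads.

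**Figure D2:**
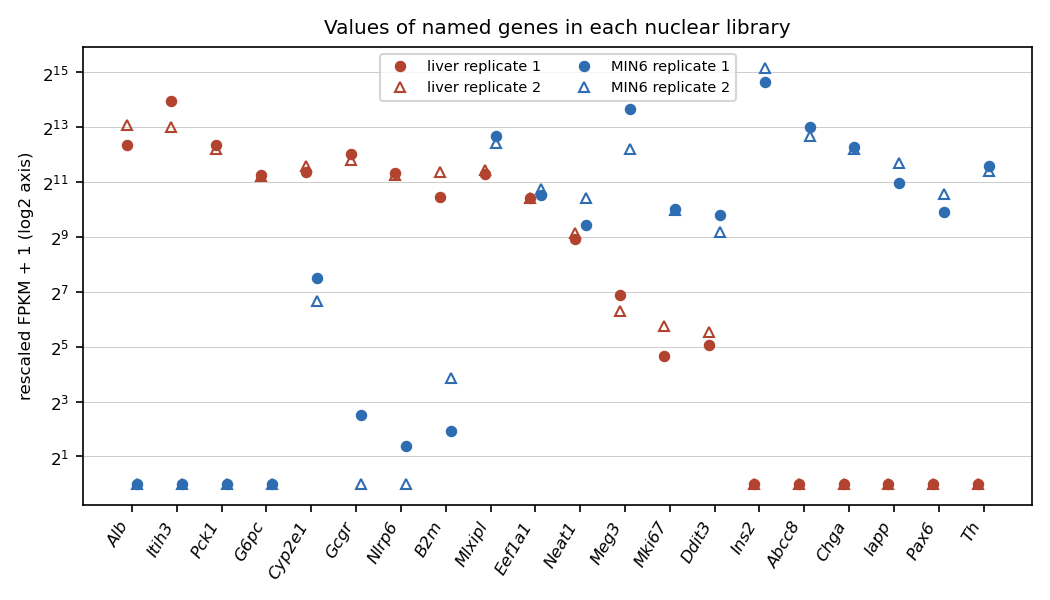
Rescaled FPKM plus 1 (log2 axis) of 20 genes in each nuclear library, with liver in red, MIN6 in blue, replicate 1 filled and replicate 2 open. Ins2, Chga and Iapp sit at 0 in liver, and Alb, Itih3, Pck1 and G6pc at 0 in MIN6. Cyp2e1, B2m, Gcgr and Nlrp6 are above 0 in at least 1 MIN6 library. Eef1a1 lies close together in all 4 libraries, and Mlxipl and Neat1 are well above 0 in both tissues.

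Secreted proteins were the clearest liver group. All 35 plasma and coagulation proteins tested were called higher in liver, against a background of 16%, with a median difference of 9.76 beside −0.18 over all genes. With genes listed at 0 set to the level of 3 reads on 2 kb, this median was 7.65 beside −0.04. Trf, the iron carrier transferrin, stood at 5269 and 6424 rescaled FPKM in liver and was listed at 0 in both MIN6 libraries (adjusted p = 0.00203, limma). Hpx, the haem carrier haemopexin, stood at 2944 and 4145 in liver and at 7.1 and 0 in MIN6 (difference 10.26 ± 1.14, SE, n = 2 per tissue, limma adjusted p = 0.00869). All 17 complement and lectin-pathway genes were called in the same direction, among them C3, the central complement component, at 5927 and 4482 in liver against 3.97 and 0 in MIN6. C4b was one of the few present in MIN6, at 66.1 and 33.4, against 3596 and 4051 in liver (difference 6.31 ± 0.49, SE, n = 2 per tissue, limma adjusted p = 0.0041).

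Lipoprotein genes followed with 14 of 15 called higher in liver. Apoa2 stood at 5055 and 7450 rescaled FPKM in liver and at 17.6 and 19 in MIN6 (difference 8.31 ± 0.4, SE, n = 2 per tissue, limma adjusted p = 0.00223). Apoe, a ligand for lipoprotein uptake, was also present in MIN6 nuclei, at 139 and 74.2, against 3793 and 7482 in liver (difference 5.7 ± 0.58, SE, n = 2 per tissue, limma adjusted p = 0.0073). Acute phase proteins, a list added after the values were seen, were called in 11 of 11, led by Saa2 at 6672 and 4652 and Saa1 at 5587 and 4422, both listed at 0 in MIN6. Of 21 genes of major urinary proteins, the pheromone carriers of mouse urine and also a list added later, 15 were tested and 14 called, and all 21 were at 0 in both MIN6 libraries. The 15 tested thus passed the minimum through liver alone and could be called only for liver. The same holds for 10 of the 11 acute phase genes. Saa, Mup, P450 and class I histocompatibility genes have near-identical relatives, between which the deposited counting could have split reads.

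Metabolic genes of the hepatocyte were mostly called, with some enzymes present in both nuclei. Of 30 cytochrome P450 genes, 27 were higher in liver, with a median difference of 7.43, or 5.32 with zeros at the 3-read level. Cyp4a10, a fatty acid hydroxylase, stood at 6725 and 3428 rescaled FPKM in liver and was listed at 0 in both MIN6 libraries. Cyp2e1, which oxidises ethanol, was detected in MIN6 at 180 and 101 against 2635 and 3062 in liver (difference 4.38 ± 0.46, SE, n = 2 per tissue, limma adjusted p = 0.00766). The 3 not called were Por, Cyp39a1 and Cyp2b10. Bile acid genes were called in 17 of 17, amino acid and one-carbon breakdown in 21 of 24, conjugation enzymes in 15 of 19 and urea cycle and ammonia genes in 10 of 11, none of them higher in MIN6. Slc27a2, a bile acid and very long chain acyl-CoA synthetase, stood at 7371 and 5991 in liver and was listed at 0 in both MIN6 libraries. Asl, argininosuccinate lyase, was present in both, at 2175 and 1490 in liver and at 217 and 150 in MIN6 (difference 3.31 ± 0.44, SE, n = 2 per tissue, limma adjusted p = 0.0127). Gls2, liver-type glutaminase, was the urea and ammonia gene not called, at 514 and 474 against 196 and 230 (adjusted p = 0.0743, limma), but it was called on columns scaled to a common median (adjusted p = 0.0496, limma).

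Glucose genes split between the tissues. Of 17 glucose and glycogen genes, 13 were higher in liver and 1 was higher in MIN6. Pck1 and G6pc, which catalyse the committed and last steps of gluconeogenesis, stood at 5206 and 4788 and at 2439 and 2391 rescaled FPKM in liver, and both were listed at 0 in MIN6. Gckr, a regulatory protein of hepatic glucose phosphorylation, stood at 1208 and 1389 in liver and was listed at 0 in both MIN6 libraries. The islet relative of G6pc, G6pc2, stood at 514 and 1308 in MIN6 and at 0 in both liver libraries. Fatty acid oxidation and ketone body genes were called in 15 of 20, led by Acaa1a at 6789 and 4735 in liver against 680 and 479 in MIN6.

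Of 23 hepatocyte and endoderm transcription factors tested, 17 were higher in liver and none was higher in MIN6, with a median difference of 4.28, or 3.95 with zeros at the 3-read level. Creb3l3, a hepatic regulator of triglyceride metabolism, stood at 1297 and 1184 rescaled FPKM in liver and at 12.2 and 11.9 in MIN6 (difference 6.57 ± 0.35, SE, n = 2 per tissue, limma adjusted p = 0.00245). Hnf4a, which governs much of hepatocyte gene expression, averaged 269 in liver and 6.34 in MIN6 (difference 5.22). Foxa2, a factor used by both liver and islets, averaged 45.8 in liver and 50.5 in MIN6 and was not called. Foxa2 was picked out after its values were seen. Of 19 hormone and hormone receptor genes of liver, 14 were called, including Asgr1, a subunit of the asialoglycoprotein receptor, at 1972 and 1969 against 4.83 and 23.4, and Igfbp1 at 1343 and 1721 against 0 in both MIN6 libraries.

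In MIN6 nuclei the insulin granule was the counterpart of the plasma proteins. Of 20 granule and prohormone-processing genes, 18 were called higher in MIN6, against a background of 15.3%, and all 18 were listed at 0 in both liver libraries. Their list had a median difference of −7.51, or −5.35 with zeros at the 3-read level. Chga, chromogranin A of the granule core, stood at 5023 and 4775 rescaled FPKM in MIN6 (adjusted p = 0.00203, limma). Iapp, amylin, which is released with insulin, stood at 2016 and 3359, and Ptprn, a granule membrane protein, at 2742 and 2536. Ins1, the second mouse insulin gene, stood at 677 and 179, below Ins2 in either library, with reads that the counting could have shared between the pair. Pam and Dnajc5 were the members not called, and both were also present in liver.

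Channels and glucose sensing gave 12 calls of 17 for MIN6 and none for liver. Abcc8, the sulphonylurea receptor subunit of ATP-sensitive potassium channels, stood at 8231 and 6582 rescaled FPKM in MIN6, whereas Kcnj11, which encodes the pore of the same channel, averaged 40.8. Both were listed at 0 in liver. Gipr, a receptor for the incretin GIP, stood at 1226 and 886, and Glp1r, the GLP-1 receptor, averaged 70.8. Of 23 genes of regulated exocytosis, 15 were called for MIN6, such as the granule-fusion protein Snap25 at 162 and 517 and the synaptotagmin Syt13 at 294 and 353, both at 0 in liver. Vamp2, their vesicle partner, averaged 157 in liver and 125 in MIN6 and was not called.

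Of 17 beta-cell transcription factors, 13 were called for MIN6 and 1 for liver. Pax6 stood at 967 and 1500 rescaled FPKM and Isl1 at 158 and 360 in MIN6, and both were listed at 0 in both liver libraries. Pdx1, Nkx6-1 and Mafa, which define the mature beta cell, averaged 27.3, 99.9 and 6.13 in MIN6 and were listed at 0 in liver.

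Of 8 other islet hormones and neuropeptides tested, 4 were called for MIN6 and none for liver. Cck, cholecystokinin, stood at 409 and 798 rescaled FPKM and Npy, neuropeptide Y, at 419 and 579, both at 0 in liver. Gcg, glucagon, stood at 37.7 and 63.8 in MIN6 and at 0 and 10.7 in liver, and was not called (adjusted p = 0.103, limma). Th, tyrosine hydroxylase, which makes the catecholamine precursor DOPA, was 1 of the 12 largest MIN6 differences, at 3096 and 2736 against 0 in both liver libraries. Among 9 tested genes of catecholamine synthesis and storage, a list added after the values were seen, Th and the vesicular transporter Slc18a1 were called for MIN6, Gch1 was called for liver and 6 were not called.

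**Figure D3:**
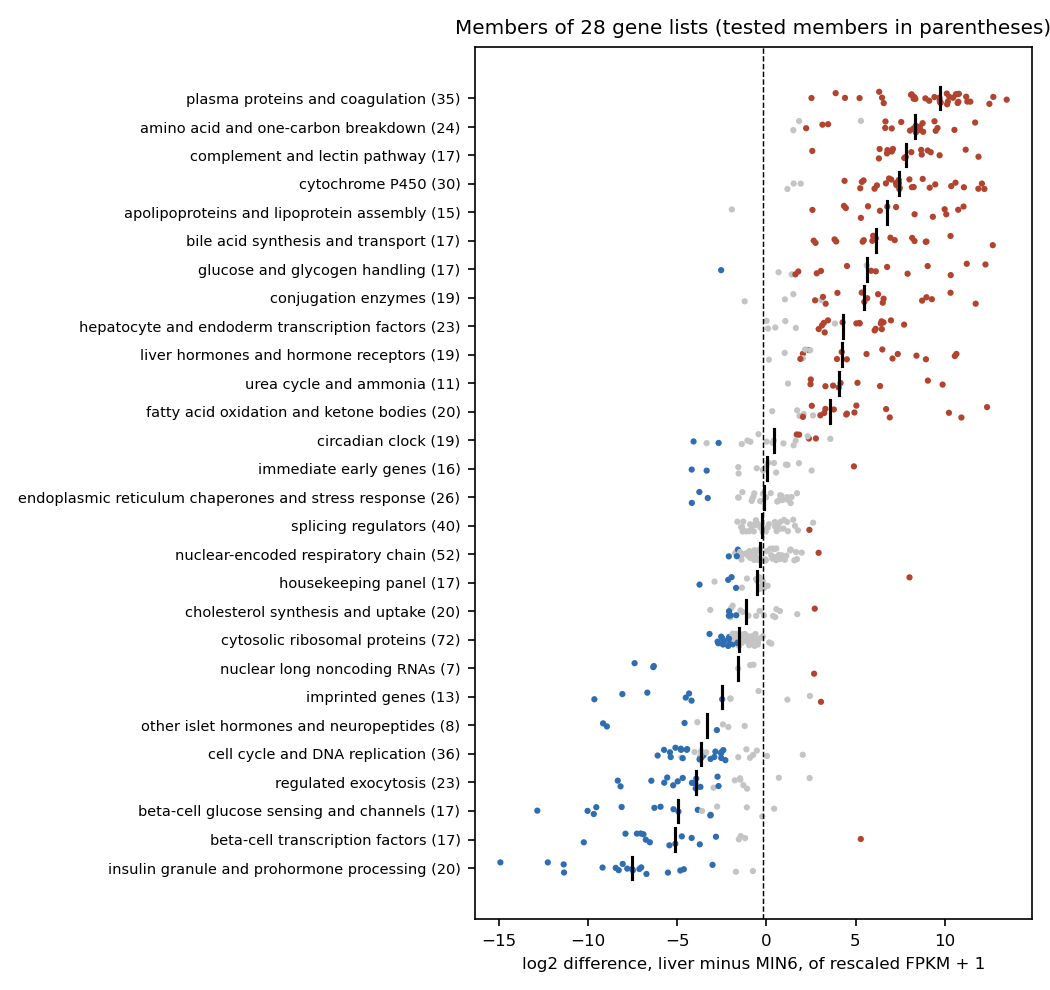
Log2 difference, liver minus MIN6, of every tested member of 28 gene lists, coloured red where called higher in liver, blue in MIN6 and grey where not called, with a black bar at each list's median and a dashed line at the median of all genes tested, −0.18. Liver lists lie to the right and beta-cell, exocytosis and cell-cycle lists to the left, while splicing and respiratory-chain genes are mostly grey.

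Cell-cycle genes were a further MIN6 group, with 24 of 36 called for MIN6 and none for liver. Mki67, a marker of cycling cells, stood at 24.2 and 52.9 rescaled FPKM in liver and at 1050 and 1002 in MIN6 (difference −4.8 ± 0.52, SE, n = 2 per tissue, limma adjusted p = 0.00832). The DNA replication helicase gene Mcm2 averaged 2.24 in liver and 160 in MIN6. Cdk2 and the cyclin gene Ccna2 were among the 12 not called, with means of 45.2 and 11.6 in liver against 46.3 and 17.6 in MIN6. The list's median difference was −3.64, or −3.58 with zeros at the 3-read level.

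Imprinted and noncoding RNAs of mouse chromosome 12 were high in MIN6 nuclei. In GRCm38 coordinates, Meg3 (chr12:109541001-109571726), Rian (chr12:109603940-109661716) and Mirg (chr12:109729764-109749460) lie next to each other and are transcribed from the maternal chromosome. Meg3 stood at 118 and 77.9 rescaled FPKM in liver and at 13150 and 4733 in MIN6 (difference −6.35 ± 0.66, SE, n = 2 per tissue, limma adjusted p = 0.00763). Rian stood at 11.7 and 5.74 in liver and at 907 and 2654 in MIN6 (difference −7.39), and Mirg at 11.8 and 6.12 against 1078 and 535 (difference −6.32). Dlk1, the paternally expressed growth regulator of the same domain, averaged 113 in MIN6 and was listed at 0 in liver. For all 3 RNAs both MIN6 libraries lay above both liver libraries, with replicate 1 the higher for Meg3 and replicate 2 the higher for Rian. The symbol Rian is shared by more than 1 gene identifier. Of 13 imprinted genes tested, 7 were called for MIN6, including Nnat at 586 and 1094 and Igf2 at 181 and 402, both at 0 in liver, and Grb10 was called for liver at 6.18 and 8.73 against 0 in both MIN6 libraries. Neat1 stood at 481 and 570 in liver and at 698 and 1384 in MIN6 and was not called (adjusted p = 0.248, limma). Of 7 nuclear long noncoding RNAs tested, the calls were Meg3, Rian and Mirg for MIN6 and Snhg11 for liver. Malat1, a noncoding RNA of nuclear speckles, overlapped between the tissues at 55 and 99.5 against 52.1 and 287.

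Of 40 splicing regulators, 1 was called for liver (3 on columns scaled to a common median) and none for MIN6 on either scale, with a median difference of −0.23 beside −0.18 over all genes. The call was Tardbp, which encodes TDP-43, with means of 363 in liver and 74.4 in MIN6 rescaled FPKM. Rbm39 overlapped at 1233 and 1388 in liver against 1381 and 2866 in MIN6, with an interval of the difference from −2.03 to 0.82. In the nuclear-encoded respiratory chain, 1 of 52 genes was called for liver and 3 for MIN6, a split that was 3 and 1 on columns scaled to a common median. Ribosomal protein genes leaned to MIN6, with 19 of 72 called there, none in liver and a median difference of −1.51; on columns scaled to a common median 6 were called and the median was −1.29. Rpl13a stood at 656 and 482 rescaled FPKM in liver and at 3498 and 1807 in MIN6 (adjusted p = 0.0452, limma, and 0.102 on columns scaled to a common median).

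With the settings used throughout, Rab4b and Zfp317 had a 95% interval within 1 log2 unit of 0 on either side. The count of such genes, 2 here, depended strongly on the settings, from 0 with a pseudocount of 0.1 to 536 with a pseudocount of 5, and was 177 to 474 without 1 library. Rab4b, a small GTPase of endosome recycling, stood at 176 and 179 rescaled FPKM in liver and at 189 and 164 in MIN6, with an interval from −0.97 to 1. Zfp317 stood at 10.1 and 11.1 against 10.4 and 10.5, with an interval from −0.95 to 0.99. For the other genes without a call, these libraries do not bound the difference that closely. Eef1a1, a translation factor at 1389 and 1384 against 1466 and 1738, had an interval from −1.2 to 0.79.

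Of 17 housekeeping genes, 4 were called for MIN6, among them Gapdh at 124 and 131 rescaled FPKM in liver against 467 and 526 in MIN6. B2m, the light chain of class I histocompatibility molecules, was called for liver, at 1416 and 2617 against 2.77 and 13.4 (difference 8.03 ± 0.83, SE, n = 2 per tissue, limma adjusted p = 0.00751). A list of class I presentation genes added after this was seen had 10 of 17 called for liver and none for MIN6. Of its heavy chains, H2-K1 stood at 3442 and 4494 in liver and 780 and 1045 in MIN6 (difference 2.12 ± 0.4, SE, n = 2 per tissue, limma adjusted p = 0.0274), and H2-D1 at 1288 and 2313 against 339 and 485. Nlrc5, the activator of class I genes, averaged 129 in liver and 1.11 in MIN6.

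Counts of stress, clock, immediate early and cholesterol genes stand beside shares over all genes tested of 16% for liver and 15.3% for MIN6. Ddit3, which encodes the stress factor CHOP, was 1 of 3 endoplasmic reticulum genes of 26 called for MIN6, at 888 and 574 rescaled FPKM against 32.1 and 45.9 in liver (difference −4.18 ± 0.45, SE, n = 2 per tissue, limma adjusted p = 0.00813), and none was called for liver. The chaperone gene Hsp90b1 stood at 1035 and 1334 in liver and 521 and 1005 in MIN6 and was not called. Of 19 clock genes, 4 were called for liver and 2 for MIN6, or 5 and 1 on columns scaled to a common median. Dbp, an output of the clock, stood at 0 and 4.62 in liver and at 48.7 and 31.5 in MIN6 (adjusted p = 0.0463, limma, and 0.0631 on columns scaled to a common median). The hour at which liver was taken is not given in the labels. Of 16 immediate early genes, 2 were called for MIN6, among them Fos at 50.9 and 95.8 against 4.62 and 1.68 in liver, and Zfp36, which destabilises cytokine mRNAs, was called for liver at 172 and 251 against 2.95 and 11.2. Of 20 genes of cholesterol synthesis and uptake, 4 were called for MIN6, including the regulator Srebf1 at 624 and 934 against 229 and 243, and 1 was called for liver.

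Markers of cells other than hepatocytes were also called for liver. Kupffer cell and macrophage markers were called for liver in 12 of 12, with summed levels of 2431 and 3374 rescaled FPKM against 13.2 and 13.9 in MIN6. Endothelial markers were called for liver in 12 of 12, with summed levels of 1650 and 1938 rescaled FPKM against 57.1 and 25.9 in MIN6, stellate and fibroblast markers in 8 of 10 (243.5 and 241.1 against 10.8 and 14.1) and leukocyte markers in 7 of 9 (110 and 280.2 against 8.17 and 13.2). Clec4f, a lectin of Kupffer cells, stood at 690 and 558, and Clec4g, a lectin of sinusoidal endothelium, at 473 and 580, both at 0 in MIN6. The 2 liver libraries were unlike in some of these cells' genes. Class II genes, which mark antigen-presenting cells, stood at 117 and 467 for H2-Aa and at 93.7 and 594 for H2-Ab1 in replicates 1 and 2, and 5 of 6 tested were called for liver in a list added later. Erythroid markers summed to 230.5 in liver replicate 1 and 73.6 in replicate 2, and were called in 4 of 6. The part of these cells in the liver calls was not tested. Bile duct and exocrine pancreas markers gave 1 call each way in each list, with Krt7 at 106 and 122 in MIN6 and 0 in liver.

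Promoters of called genes were read for a few known motifs. RefSeq promoters in GRCm38.p6, from 250 bases before to 50 after the first start listed for a gene, matched 10322 of the tested genes. Both strands were searched, and a match describes letters only, not binding. The hepatic factor HNF1 motif GTTAATNAT was in 1.95% of promoters of genes higher in liver, 0.248% of those higher in MIN6 and 0.311% of those not called, beside 0.836% of all 27025 promoters. For the HNF4 motif CAAAGTCCA the shares were 0.973%, 0.31%, 0.382% and 0.477% in the same order. For the forkhead (FOXA) motif TGTTTGC they were 6.33%, 2.05%, 3.44% and 5.04%.

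TTCAGCACC, part of the RE1 element through which REST silences neuronal genes, was in 0.931% of promoters of genes higher in MIN6, 0.122% of those higher in liver, 0.311% of those not called and 0.359% of all. For the cAMP response element TGACGTCA the shares were 3.72%, 1.22%, 3.67% and 1.88%, so that MIN6 genes were close to genes without a call and liver genes were lower. The TATA box letters TATAAA were in 13.6% of liver promoters, 6.08% of MIN6 promoters and 6.57% of those not called, beside 14.2% of all. The GC box GGGCGG was in 46.7%, 62.2% and 65% of the same groups and in 35.9% of all promoters. These are shares of genes, and several rest on few promoters: 32 liver and 4 MIN6 promoters held the HNF1 letters, and 2 and 15 held those of RE1.

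**Figure D4:**
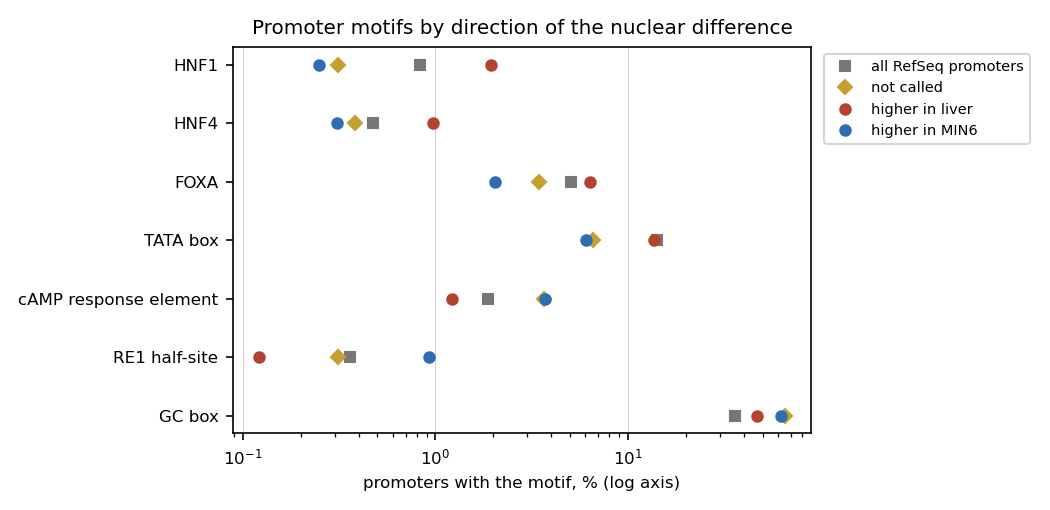
Percent of promoters that hold each motif (log axis), for genes called higher in liver (red), higher in MIN6 (blue), not called (gold diamonds) and all RefSeq promoters (grey squares). HNF1, HNF4, FOXA and TATA letters are most frequent in red among the tested genes and RE1 letters in blue.

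Examples are printed as the 150 bases before the RefSeq start, 5′ to 3′ on the gene's strand, with motif matches in capitals. They were picked for their matches from the named genes, to show where the letters lie in genes with large differences. Alb (chr5:90460720-90460869, plus strand) holds FOXA and HNF1 letters, and Hc (chr2:35061413-35061562, minus strand), the complement C5 gene at 3878 and 3754 rescaled FPKM in liver and 0 in MIN6, Gckr (chr5:31297413-31297562, plus strand) and Igfbp1 (chr11:7197637-7197786, plus strand) hold HNF1 letters. G6pc (chr11:101367566-101367715, plus strand) holds FOXA and TATA letters.
Alb: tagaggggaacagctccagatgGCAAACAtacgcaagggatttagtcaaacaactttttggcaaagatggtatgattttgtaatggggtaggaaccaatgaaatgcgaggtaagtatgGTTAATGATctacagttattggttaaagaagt
Hc: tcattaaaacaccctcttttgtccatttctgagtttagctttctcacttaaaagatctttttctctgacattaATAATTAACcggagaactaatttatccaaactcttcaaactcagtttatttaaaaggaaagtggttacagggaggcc
Gckr: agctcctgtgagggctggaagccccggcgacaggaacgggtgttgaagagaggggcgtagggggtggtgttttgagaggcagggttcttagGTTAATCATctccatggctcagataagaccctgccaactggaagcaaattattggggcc
Igfbp1: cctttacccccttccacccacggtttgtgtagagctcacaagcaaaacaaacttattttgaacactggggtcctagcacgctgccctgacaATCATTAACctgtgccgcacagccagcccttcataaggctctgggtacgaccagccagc
G6pc: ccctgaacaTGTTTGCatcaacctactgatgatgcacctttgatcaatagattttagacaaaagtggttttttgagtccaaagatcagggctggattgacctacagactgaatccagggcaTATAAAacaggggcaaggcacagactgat

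Among the MIN6 genes, Th (chr7:142899996-142900145, minus strand), Sst (chr16:23890845-23890994, minus strand) and Pax6 (chr2:105668746-105668895, plus strand) hold the cAMP response element. Sst, somatostatin, was called only narrowly, at 7.53 and 67 rescaled FPKM in MIN6 against 0 in liver (adjusted p = 0.0485, limma). Rfx6 (chr10:51685368-51685517, plus strand), an islet factor at 117 and 198 in MIN6 and 0 in both liver libraries, holds HNF1 letters although it was a MIN6 gene.
Th: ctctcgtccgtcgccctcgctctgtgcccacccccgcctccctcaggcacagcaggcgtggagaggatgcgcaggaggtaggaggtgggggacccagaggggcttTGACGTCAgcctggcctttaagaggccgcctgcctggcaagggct
Sst: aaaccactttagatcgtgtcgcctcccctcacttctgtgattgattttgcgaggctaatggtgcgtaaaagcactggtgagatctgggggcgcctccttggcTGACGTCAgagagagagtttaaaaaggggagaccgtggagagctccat
Pax6: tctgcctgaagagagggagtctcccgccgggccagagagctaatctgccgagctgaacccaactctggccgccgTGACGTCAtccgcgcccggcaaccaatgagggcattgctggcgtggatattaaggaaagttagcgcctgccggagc
Rfx6: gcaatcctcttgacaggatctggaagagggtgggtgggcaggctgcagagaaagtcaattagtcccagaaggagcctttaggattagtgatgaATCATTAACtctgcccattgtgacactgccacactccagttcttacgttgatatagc

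Small RNA gene models gave some of the highest values and differed strongly between libraries. They held 30.4% and 19.8% of the deposited sum in the liver libraries and 9.19% and 42% in the MIN6 libraries. FPKM divides by length, so 1 read on a short model is worth far more than on 2 kb. In MIN6 replicate 2, Gm22464, Gm25951 and Mir6998 each stood at 100150 rescaled FPKM, and in the other nuclear libraries at 0. Equal values of this kind may be single reads. High values, shares and calls of small RNA models, here and below, may therefore rest on very few reads. Of 121 tested, 13 were called for liver (10.7%) and 4 for MIN6 (3.31%), and every one of the 17 was listed at 0 in both libraries of the other tissue. Snord104, a box C/D small nucleolar RNA that guides 2′-O-methylation of ribosomal RNA, stood at 83031 and 113370 rescaled FPKM in liver (adjusted p = 0.00203, limma). Snord72, of the same class, stood at 4156 and 6727 in MIN6 (adjusted p = 0.00203, limma). The Snord72 call may rest on as little as 1 read per MIN6 library.

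Their GENCODE M21 sequences (GRCm38, plus strand, Snord104 chr11:106500993-106501062 and Snord72 chr15:5118404-5118484) are given with the core of box C and box D in capitals, the motifs that define the class.
Snord104: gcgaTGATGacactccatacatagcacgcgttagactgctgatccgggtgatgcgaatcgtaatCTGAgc
Snord72: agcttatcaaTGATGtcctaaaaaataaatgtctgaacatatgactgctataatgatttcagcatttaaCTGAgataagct

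Several called models lie inside longer genes. Gm22357, Gm25789 and Mir5117 overlap exons of Gas5, a noncoding snoRNA host, on its strand and were listed at 0 in both MIN6 libraries. In liver they stood at 4530 and 4948, at 18121 and 9898, and at 8328 and 4548 rescaled FPKM. Mir290a, on another chromosome, had the value of Gm22357, 4530, in liver replicate 1. Mir294 likewise had that of Mir5117, 4548, in liver replicate 2. Such shared values may be single reads, so the zeros of these models in MIN6 may be a difference of very few reads. Gas5 itself stood at 952 and 558 in liver and at 692 and 497 in MIN6 and was not called (adjusted p = 0.641, limma). Gm23187 overlaps an exon of Nop56, a core protein of the same ribonucleoproteins, and both were called for MIN6, the host at 254 and 214 in liver against 2280 and 1841. Gm23187 had the value of Snord14c in MIN6 replicate 1, 2724 rescaled FPKM, so its call may also rest on few reads. Snord72 lies in an intron of Rpl37, which stood at 10.5 and 11.4 in liver and at 36.2 and 6.51 in MIN6 and was not called.

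Mir135a-1 was the microRNA model among the 5 largest liver differences, at 2650 and 14476 rescaled FPKM in liver and 0 in MIN6 (adjusted p = 0.00375, limma). It overlaps an exon of Glyctk on the opposite strand, and Glyctk stood at 283 and 235 in liver and at 1.46 and 1.58 in MIN6. Whether the counting used strand is not given in the sources used here, so reads of the pair cannot be told apart. The mature 5p product from RefSeq (GRCm38.p6) has this sequence, with its seed, bases 2 to 8, in capitals.
mmu-miR-135a-5p: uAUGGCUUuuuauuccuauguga

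Differences also varied with chromosome and base composition. Genes on the X chromosome had a median difference of −1.1, against −0.15 over all autosomes, and 7.46% were called for liver and 18.8% for MIN6. In each of 5 equal groups of genes by transcript GC content, X genes had a lower median than autosomal genes. Medians of single autosomes ran from −0.66 on chromosome 7 to 0.46 on chromosome 6. Xist, which silences the inactive X in female cells, was listed at 0 in both liver libraries and stood at 3.53 and 0.982 in MIN6, and was not called (adjusted p = 0.104, limma). The Y-linked Eif2s3y stood at 113 and 124 rescaled FPKM in liver, and Uty and Ddx3y averaged over 10 there, and all 3 were called for liver and listed at 0 in both MIN6 libraries. In the cytoplasmic libraries the X median was −1.93, against −0.96 for the autosomes.

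GC content moved with the direction of the calls. From the lowest to the highest of these 5 GC groups, the share called for MIN6 went from 8.61% to 24%, and the median difference went from 0.17 to −0.81. The 2 MIN6 libraries also differed by GC content, with a median of replicate 1 minus replicate 2 of −0.49 in the lowest group and 0 in the highest, whereas in liver the same median was −0.07 and 0. Across 5 equal groups by length of the longest transcript, the MIN6 replicate difference ran from 0 in the shortest to −0.6 in the longest. The part of base composition and length in the tissue difference was not tested.

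**Figure D5:**
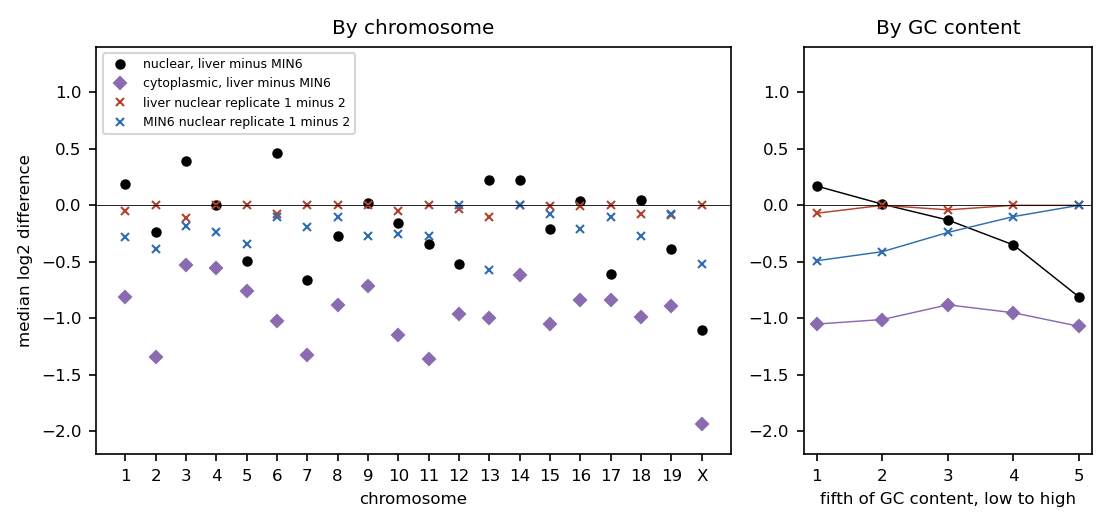
Median log2 difference of tested genes by chromosome (left) and by 5 equal groups of transcript GC content (right), for liver minus MIN6 in nuclear RNA (black) and cytoplasmic RNA (purple) and for replicate 1 minus replicate 2 of liver (red crosses) and MIN6 nuclei (blue crosses). Nuclear values fall with GC content to −0.81 in the highest group, and the X chromosome is lowest in both fractions.

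Whether the tissue difference itself differed between fractions was asked over all 8 libraries. Nuclear RNA was prepared differently in liver and MIN6, and an interaction cannot be told apart from that preparation. The interaction was called in 664 genes with a larger liver-minus-MIN6 difference in nuclear than in cytoplasmic RNA (4.76%) and in 198 with a smaller one (1.42%), by limma with Benjamini-Hochberg adjustment. On columns scaled to a common median these were 245 and 198, and the median over all genes was 0.89 on the first scale and 0.12 on the second. The total of 862 became 22 or 20 without 1 MIN6 cytoplasmic library, 136 or 211 without 1 liver cytoplasmic library and 2408 without MIN6 nuclear replicate 2. Mir142hg, the host gene of a microRNA of blood cells, stood at 161 and 234 rescaled FPKM in liver nuclei and was listed at 0 in MIN6 nuclei and in all 4 cytoplasmic libraries (interaction 7.61 ± 0.48, SE, adjusted p = 0.00248, limma). Cyp2j9, a P450 gene, stood at 365 and 186 in liver nuclei with the same zeros. Lmtk3, a kinase gene of neurons, stood at 1930 and 1081 in MIN6 nuclei, at 5.89 and 11.6 in MIN6 cytoplasm and at 0 in all liver libraries (interaction −7.28 ± 0.64, SE, adjusted p = 0.00925, limma). In Mir142hg, Cyp2j9 and Lmtk3 the groups at 0 enter as the added 1, so the size of the interaction depends on that added value. Nme2, a nucleoside diphosphate kinase, differed in MIN6's favour in the nucleus, at 2.64 and 1.48 against 453 and 453, but stood at 414 and 79.5 against 76 and 136 in the cytoplasm.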

How the data were processed

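RNA was selected for poly(A) tails and sequenced in 8 libraries, of which the 4 nuclear ones were compared. The deposited table gives 1 value per gene and library, taken as FPKM from the values and the tools named, since no header states the unit, and the authors used TopHat and Cuffdiff with mouse build mm10, per the submitters' processing notes; their versions, the annotation and the column scaling are not stated in the labels or files. Each column was rescaled to a sum of 1000000 over genes other than small RNA models (2435 of 26520 genes, by GENCODE M21 biotype or symbol), since the deposited sums differ between tissues. Genes with a mean of at least 1 were tested with limma 3.58.1 in R 4.3.3 (eBayes without trend) on log2(value + 1), 2 against 2, two-sided, with Benjamini-Hochberg adjustment over all genes tested. An exact permutation test of 2 against 2 cannot go below p = 0.333, so the calls rest on the spread that limma pools across genes. Adding 1 understates the change of low genes. Motifs, positions and GC content came from RefSeq and GENCODE M21, which held 25584 of the gene identifiers. Named genes were the 12 largest differences each way, the highest members of each list and members against its majority, up to 5 small RNA models each way, the genes bounded near 0, 5 interaction genes each way and 7 genes of the study; further list members were named for their role, with values known. Members, lists and tests were chosen with earlier results of these data known, and 5 lists were added after these values were seen. Scaling, pseudocount, filter, trend, replicate block and left-out libraries were varied. The fit was tested on simulated data in which every gene had the same spread and no tested gene was listed at 0. That test does not cover calls of genes listed at 0 in a tissue. Some list members that the rule names are not reported here.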

Additional observations from a re-analysis of the deposited data

Results flagged for a closer look

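The tissue difference differed between nuclear and cytoplasmic RNA in 862 genes by limma's interaction test, a count that depended strongly on the settings. It was 443 on columns scaled to a common median and 114 with the replicate block. The unlike preparation of liver and MIN6 nuclei cannot be told apart from such a difference. The 5 largest each way are given here as the nuclear minus the cytoplasmic liver-to-MIN6 difference on the log2 scale. Below 0 were Cul9 at −8.39, Nme2 at −8.07, Ccdc176 at −7.33, Lmtk3 at −7.28 and Dnaic1 at −6.94. Above 0 were Ramp2 at 8.92, Cyp2j9 at 8.03, Mir142hg at 7.61, Bik at 7.58 and Gm20390 at 7.25. Cul9, a cullin, stood at 15.9 and 0 rescaled FPKM in liver nuclei and 202 and 139 in MIN6 nuclei, but at 8.83 and 5.8 in liver cytoplasm and 0 in both MIN6 cytoplasmic libraries. Ramp2, a receptor partner for adrenomedullin, stood at 98.7 and 136 in liver nuclei and at 0 in both liver cytoplasmic libraries, while MIN6 gave 6.78 and 32.9 in nuclei and 52.8 and 82.7 in cytoplasm.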

How the results depend on the processing

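In every alternative run on the nuclear comparison, no gene called in 1 direction was called in the other. On the deposited FPKM scale without rescaling, 3892 genes were higher in liver and 362 in MIN6, with a median difference of 1.23, since liver columns sum higher. Leaving out each library in turn gave 1131 to 1632 liver calls and 332 to 1579 MIN6 calls, with the lone library assumed to vary like the others. Scaling over all genes gave 2274 and 2056 calls, a common median 2519 and 1869, the replicate block 2150 and 2000 (liver and MIN6). Genes bounded within 1 log2 unit numbered 2, and 48 with scaling over all genes, 35 with a common median, 0 with a pseudocount of 0.1, 536 with 5, 6 with no filter, 11 with a mean of at least 5, 106 with a trend, 1 without small RNA models, 0 with the replicate block, 116 with all 8 libraries and 177 to 474 without 1 library. The interaction count was 862, and 443 with a common median, 1472 with a pseudocount of 5, 114 (87 above and 27 below 0) with the replicate block and 20 to 2408 without 1 library. The causes were not tested. Deviations of same-numbered libraries correlated at 0.0134 across genes between liver and MIN6 nuclei, and between nucleus and cytoplasm at 0.044 in liver and 0.037 in MIN6, so the libraries were not treated as pairs. Of 152 named genes called, 66 kept direction and call in all 14 alternatives and none reversed. The 3-read level limits low genes: 147 liver and 115 MIN6 calls had a higher mean under the largest such level, 4.45 rescaled FPKM.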
